A study of Homo sapiens with 12 samples.

Results

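The mitochondrial ribosome was followed through the 76 genes whose symbols read MRPS or MRPL, a number and at most 1 further letter, out of 15090 genes listed for 12 RNA sequencing libraries. Of these, 27 carry MRPS names, given to proteins of the small subunit, and 49 carry MRPL names, given to the large subunit. All 76 were among the 12789 genes tested, which reached 1 read in 1000000 (RPM) in at least 3 libraries. MRPS18B and MRPS24 were not analysed here.

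The mitochondrial ribosome translates the few mRNAs encoded by mitochondrial DNA, all of them for subunits of the respiratory chain and the ATP synthase. Its ribosomal RNAs are made inside the organelle, whereas every one of its proteins is encoded in the nucleus, made in the cytosol and imported. Many of these proteins have bacterial counterparts, and others exist in mitochondria and have none in bacteria. Without mitochondrial translation the electron transport chain lacks its core subunits.

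The cells were MIA PaCa-2, an established human pancreatic cancer line labelled wild type, and a single line stands for the disease here. There were 4 groups of 3 libraries: 40 mM L-glutamine with 0.5 µM gemcitabine, 2 mM L-glutamine with 0.5 µM gemcitabine, 40 mM L-glutamine without the drug and 2 mM L-glutamine without the drug, all at 48 h. Every group was kept in RPMI 1640 lacking glutamine, to which it was then added, and gemcitabine is a deoxycytidine analogue that blocks DNA synthesis. The series design calls the 3 samples of a group biological triplicates. The labels also mention D-glutamine, and no sample title names it.

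Reads in listed genes came to between 21723094 and 32811746 per library. Keratins and vimentin were high, with KRT8 at 1355 to 2357 RPM and VIM at 2944 to 3488 RPM, while the endothelial gene CDH5 reached at most 0.66 RPM and the fibroblast gene COL1A1 at most 1.61 RPM. COL1A2 stood at 582 to 897 RPM and CD68 at 19.2 to 43.9 RPM in these libraries. EPCAM, CDH1, PTPRC and PECAM1 were not analysed here. A member had a median of 1227 reads per library, at which counting alone gives a coefficient of variation of 2.86%.

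A short stretch of letters near the transcription start was held by more of these genes than of tested genes at large, a feature that the choice by name did not use. RefSeq (GRCh38.p14) gave a promoter window of 300 bases, from 250 before to 50 after the transcription start, for 67 of the 76 members. The letters AAGATGGC, known as the core of the YY1 motif, occurred on either strand in 18 of the 67 windows (26.9%). Among all 9858 tested genes with such a window the share was 5.56%, and among all 35116 windows it was 2.89%. Small subunit genes held the letters in 6 of 25 windows and large subunit genes in 12 of 42. Most matches lay just downstream of the start. In 13 members (19.4%) the letters began 6 to 35 bases after it, and 3.86% of tested genes had them anywhere from 10 bases before the start to the end of the window. The letters contain ATG, and whether that ATG is the first codon was not tested. The 6 examples below are members that changed in a comparison or, for MRPL51, had the highest level per length, and the capitals mark the 8 matching letters.
MRPS27: tacgctccAAGATGGCtgcctcca
MRPL20: acccgggcAAGATGGCagcggcgc
MRPL42: attgaaacAAGATGGCgggttcgt
MRPS10: ggaccggcAAGATGGCggcgcgga
MRPS30: cgcgggcaAAGATGGCggcggcca
MRPL51: taaggcccAAGATGGCtgtcttcg
In the same order they lie at chr5:72320209-72320232, minus strand; chr1:1407263-1407286, minus strand; chr12:93467514-93467537, plus strand; then chr6:42217837-42217860, minus strand, chr5:44808952-44808975, plus strand, chr12:6493226-6493249, minus strand. The matches begin 16, 15, 8, 9, 13 and 21 bases after the start in that order.

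Other patterns known from promoters of mitochondrial genes were searched in the same windows. The letters CCGGAAGT, bound by ETS factors such as GABPA, occurred in 11 of the 67 windows (16.4%), against 9.13% of tested promoters. The NRF1 palindrome occurred in 8 (11.9%), against 12.1%, and the E-box CACGTG, read by MYC, in 6 (8.96%), against 10.2%. Both strands were searched, each pattern was counted on its own, and no pattern contains another. MRPS2 and MRPL12, which fell furthest in size and by smallest p between the drug-treated groups, held none of the 4 patterns in their windows. The 250 bases before the start are printed for these 2 genes and for MRPL3, where the capitals mark an ETS match that begins 32 bases before the start.
MRPS2: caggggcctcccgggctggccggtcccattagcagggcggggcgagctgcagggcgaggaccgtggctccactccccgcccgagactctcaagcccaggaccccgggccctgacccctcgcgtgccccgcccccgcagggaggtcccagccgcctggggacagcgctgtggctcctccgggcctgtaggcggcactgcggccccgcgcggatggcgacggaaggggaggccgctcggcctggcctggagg
MRPL12: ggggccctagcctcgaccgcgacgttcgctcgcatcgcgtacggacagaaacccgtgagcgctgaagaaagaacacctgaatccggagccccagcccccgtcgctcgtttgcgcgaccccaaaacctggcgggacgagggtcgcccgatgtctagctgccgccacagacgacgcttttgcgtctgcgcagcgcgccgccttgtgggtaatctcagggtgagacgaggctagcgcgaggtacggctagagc
MRPL3: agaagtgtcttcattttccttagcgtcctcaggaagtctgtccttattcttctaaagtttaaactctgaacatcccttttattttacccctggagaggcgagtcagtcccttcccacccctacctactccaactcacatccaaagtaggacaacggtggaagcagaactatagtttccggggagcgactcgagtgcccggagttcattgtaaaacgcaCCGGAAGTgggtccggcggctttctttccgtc
The MRPS2 stretch is chr9:135500432-135500681, plus strand, that of MRPL12 is chr17:81703117-81703366, plus strand, and that of MRPL3 is chr3:131502972-131503221, minus strand. A match describes letters in a window and does not show that a factor binds there.

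Levels differed far more between members than between groups. Per length, set by the median length of a gene's protein-coding transcripts, MRPL51 stood highest with a mean of 248 RPM per kb, followed by MRPL49 with 177, MRPL3 with 162, MRPL37 with 145 and MRPL12 with 123 RPM per kb. MRPS18C was lowest with 2.00 RPM per kb, below MRPS36 with 11.6, MRPL50 with 11.7, MRPL45 with 12.7 and MRPL23 with 13.0 RPM per kb. The median was 40.1 RPM per kb over small subunit genes and 53.1 over large subunit genes. By RPM alone, MRPL37 with a mean of 193 RPM, MRPS10 with 192 and MRPL3 with 180.3 led the members, and MRPS18C with 1.33, MRPL23 with 8.35 and MRPS28 with 13.2 closed the order. MRPL37 and MRPS10 differed by less than the spread between libraries, and the transcripts of members were shorter than usual, with a median of 1034 bases against 1841 over tested genes.

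MRPS18C, 1 of 3 human relatives of bacterial protein S18, had 1.16, 1.04 and 1.42 RPM at 40 mM with the drug, 1.22, 2.00 and 1.91 RPM at 2 mM with the drug, 1.61, 0.965 and 1.28 RPM at 40 mM without it, and 1.04, 1.07 and 1.297 RPM at 2 mM without it. The groups overlapped, and at this depth, with a median of 33.5 reads, no comparison of it passed the test. MRPS18A, placed in the large subunit by structures of the human ribosome despite its name, lay between 14.1 and 18.3 RPM in the 12 libraries and passed in none. Neither did MRPS7, a bacterial-type protein of the small subunit head, MRPL45, which sits near the exit tunnel at the inner membrane, MRPL23 or MRPS28.

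Together the 76 genes took 0.447%, 0.457% and 0.464% of the reads at 40 mM with gemcitabine, against 0.468%, 0.475% and 0.476% at 2 mM with gemcitabine. Without the drug the shares were 0.463%, 0.452% and 0.457% at 40 mM and 0.467%, 0.471% and 0.470% at 2 mM. Each library at 40 mM lay below each library at 2 mM, with or without the drug. Since this is RNA of whole cultures, fewer cells making a transcript and less of it per cell cannot be told apart. No member changed by 2-fold in any comparison; the largest change, of MRPS2 between the drug-treated groups, was -0.41 on the log2(RPM + 1) scale, and 26 of the 76 members passed the test in no pairwise comparison.

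**Figure D1:**
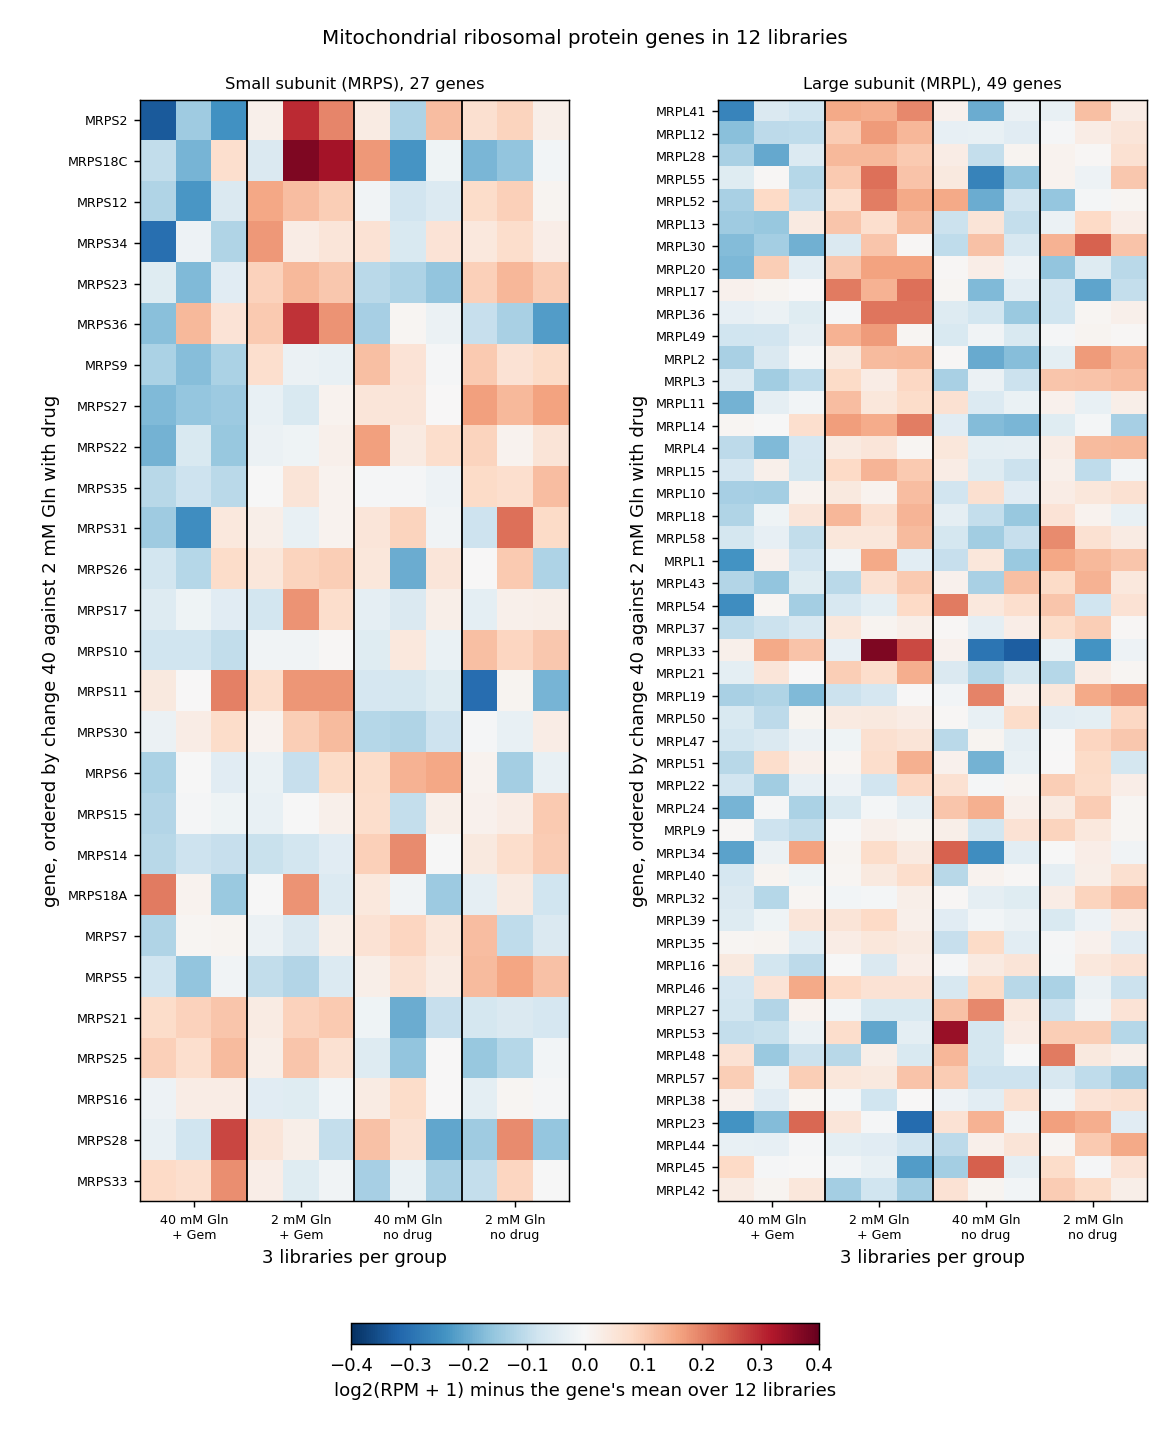
Deviation of each member from its own mean over 12 libraries (log2 of RPM + 1, colour scale ending at -0.4 and 0.4), with 27 small and 49 large subunit genes in rows and libraries in columns by group. Many rows are lowest in the 3 columns at 40 mM with gemcitabine, where 42 of the 76 members had their lowest group mean.

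Most members were at their lowest with high glutamine and the drug together. The lowest of the 4 group means was at 40 mM with gemcitabine for 42 members (55.3%), against 25.9% of all tested genes. The highest was at 2 mM with gemcitabine for 37 members (48.7%), against 25.8% of tested genes. As deviations from each gene's own mean, the median over members was -0.08, -0.04 and -0.02 in the 3 libraries at 40 mM with the drug, and 0.02, 0.05 and 0.05 at 2 mM with the drug, on the log2 scale. Without the drug it was 0.01, -0.03 and -0.02 at 40 mM and 0.01, 0.04 and 0.03 at 2 mM.

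**Figure D2:**
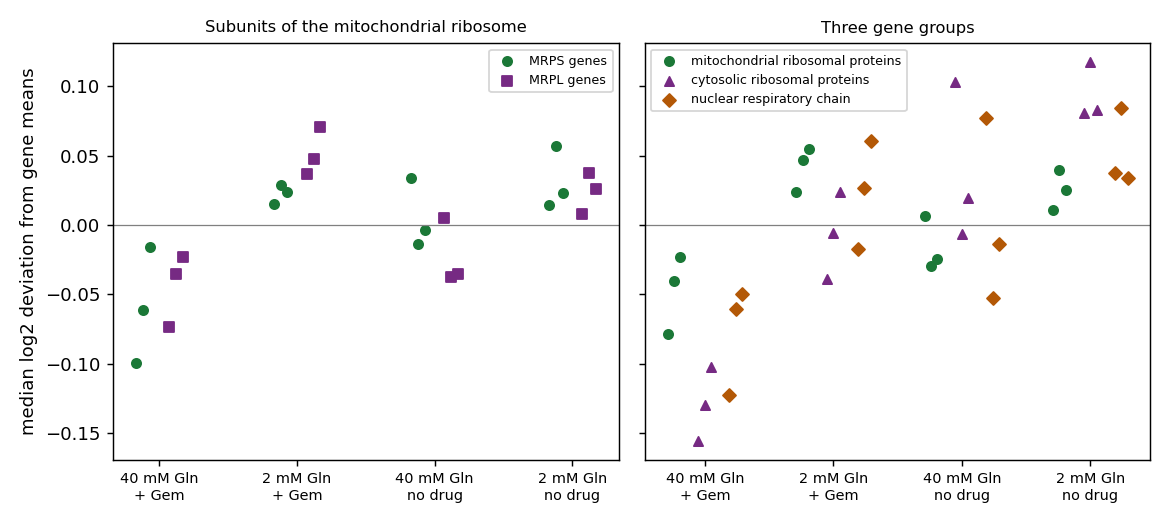
Median deviation from gene means (log2 of RPM + 1) in each of the 12 libraries by group, for small and large subunit genes on the left and for all members, cytosolic ribosomal protein genes and nuclear respiratory chain genes on the right. The members range from -0.08 to 0.05, and their lowest library is one at 40 mM with gemcitabine.

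In drug-treated cells, 40 mM against 2 mM glutamine lowered 26 of the 76 members and raised 1, by limma with Benjamini-Hochberg adjustment over all tested genes and a threshold of 0.05. Of all tested genes, 21.6% passed in this comparison, 13.0% lower and 8.62% higher. Among the members 34.2% were lower. The falls took in 7 of 27 small subunit genes and 19 of 49 large subunit genes. The median change was -0.10 over members (-0.08 over small, -0.11 over large subunit genes), against 0.00 over all tested genes. In 34 members all 3 libraries at 40 mM lay below all 3 at 2 mM, which holds for 20.5% of tested genes, and in 4 all 3 lay above, which holds for 17%.

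Within the small subunit 4 of these falls held under each alternative. MRPS2, a bacterial-type protein of the small subunit, had 40.6, 46.5 and 43.3 RPM at 40 mM with the drug, against 52.2, 63.5 and 59.1 RPM at 2 mM with the drug. All 3 libraries at 40 mM lay below all 3 at 2 mM, and the log2 fold change was -0.41 ± 0.06 (SE, n = 3 each; limma adjusted p = 1.00e-05). MRPS12, whose bacterial relative governs the accuracy of decoding, had 47.7, 44.1 and 49.9 RPM at 40 mM and 58.02, 56.8 and 55.7 RPM at 2 mM, both with the drug. It fell by 0.26 on the log2 scale (limma adjusted p = 0.000234), again with no overlap. MRPS34, found in mitochondria and not in bacteria, had 66.3, 80.8 and 75.4 RPM against 92.6, 83.6 and 84.7 RPM at 2 mM, and its log2 fold change was -0.23 ± 0.05 (limma adjusted p = 0.00155). EME2, whose gene overlaps MRPS34, had a mean of 3.55 RPM.

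In the large subunit, genes of the stalk, the flexible arm that recruits translation factors, were also lower. MRPL12, the stalk protein, had 113, 118 and 118 RPM at 40 mM with the drug, against 136, 142 and 139 RPM at 2 mM with the drug. Every library at 40 mM lay below every library at 2 mM, and the log2 fold change was -0.26 ± 0.04 (SE, n = 3 each; limma adjusted p = 1.92e-06). MRPL10, which holds the stalk to the ribosome, and MRPL11 at its base had log2 fold changes of -0.14 and -0.16 (limma adjusted p = 0.0417 and 0.0151). MRPL10 had 50.3, 50.1 and 55.7 RPM at 40 mM and 56.7, 55.7 and 60.2 RPM at 2 mM, so that its groups nearly touched, and both calls were lost in at least 1 alternative.

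MRPL41, a mitochondria-specific large subunit protein, had 67.9, 78.4 and 77.2 RPM at 40 mM with the drug, against 90.9, 90.5 and 93.5 RPM at 2 mM with the drug. The groups lay apart, with a log2 fold change of -0.30 ± 0.05 (SE, n = 3 each; limma adjusted p = 8.04e-05). MRPL28 had 89.4, 84.8 and 94.4 RPM, against 107, 107 and 106 RPM, and a log2 fold change of -0.25 ± 0.04 (limma adjusted p = 4.02e-05). MRPL3, a bacterial-type core protein near the peptidyl transferase centre, had 173, 163 and 167 RPM, against 189.7, 184 and 190.4 RPM. MRPL3 fell by 0.16 ± 0.03 on the log2 scale (limma adjusted p = 0.000716), and MRPS23 fell by 0.20 on the same scale (limma adjusted p = 0.00137).

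MRPL42 was the single rise, with 69.1, 68.0 and 69.6 RPM at 40 mM with the drug, against 61.4, 63.8 and 61.4 RPM at 2 mM with the drug. Its log2 fold change was 0.15 ± 0.04 (SE, n = 3 each; limma adjusted p = 0.0128), and the call was lost without 2 mM drug-treated replicate 1 (0.053) or 3 (0.0538). The 8 falls of MRPS2, MRPS12, MRPS34, MRPS23, MRPL41, MRPL28, MRPL12 and MRPL3 held in every alternative run, and the other 18 lost the call in at least 1. The count of falls was 14 without replicate 1 at 40 mM with the drug, and 17 without replicate 2 or without replicate 3 at 2 mM with the drug. It was 10 where reads were scaled by plain library sums, and all 10 were among the 26. The deposited scaling factors were 1.026 to 1.029 in the libraries at 40 mM with the drug and 0.979 to 1.002 in the other 9; under plain sums the median of all tested genes moved to 0.05, and 2017 genes were higher and 941 lower, where the deposited scaling gave 1102 higher and 1663 lower. Quantile normalization gave 1245 higher and 1239 lower, and removing trends with level, length and GC content gave 1207 and 1191. The count of falls among members was 19 under quantile normalization, all of them among the 26. With the trends removed it was also 19, of which 18 were among the 26.

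**Figure D3:**
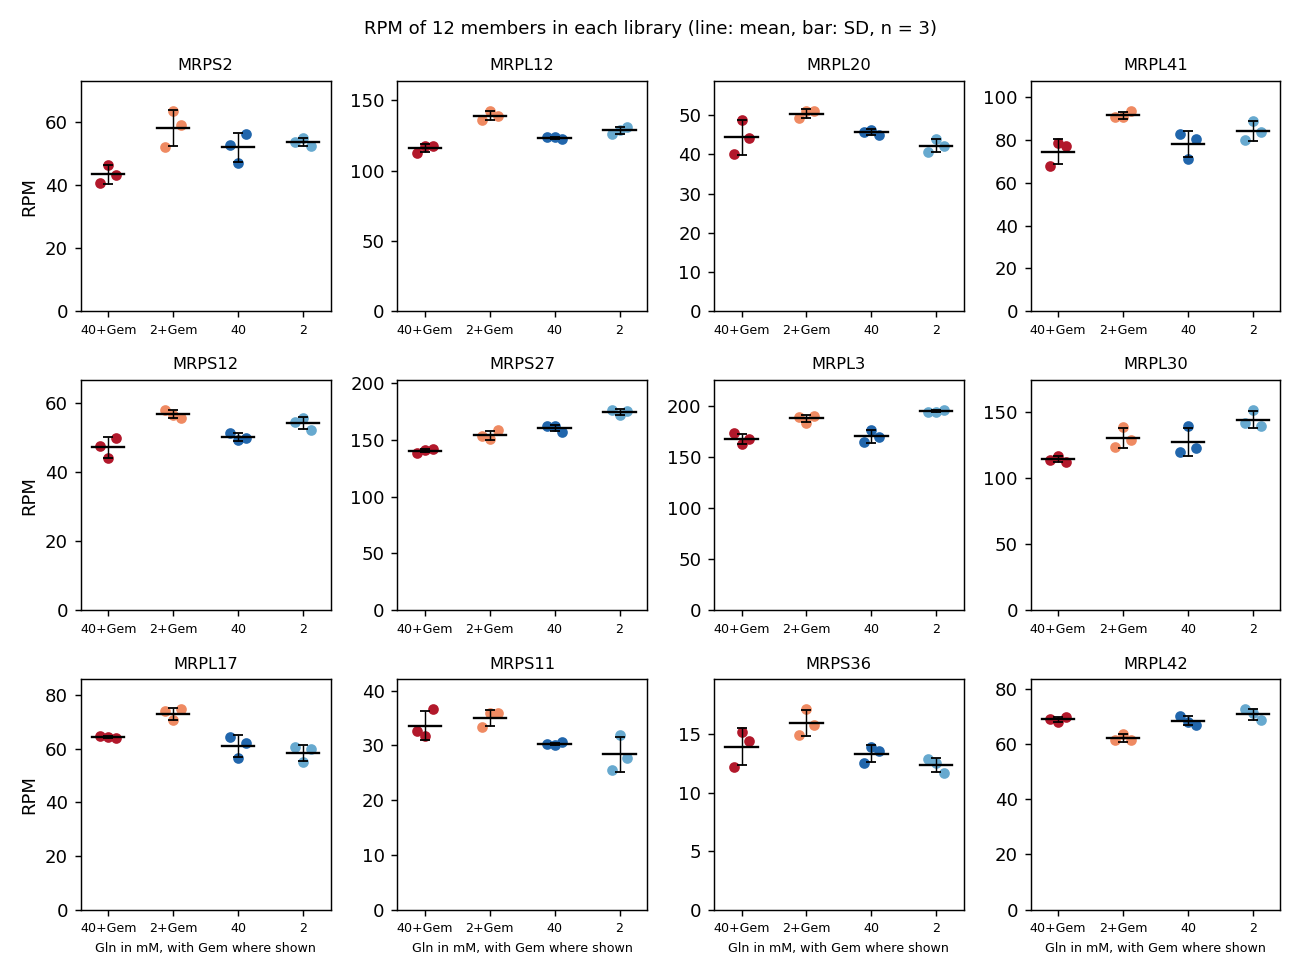
RPM of 12 members in each of the 12 libraries (points), with the mean (line) and SD (bar, n = 3) of each group; the vertical axes start at 0. MRPS2 and MRPL12 are lowest in the 3 libraries at 40 mM with gemcitabine.

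By descent, the falls in drug-treated cells came from both kinds of protein. Of 43 members with a bacterial homologue 17 fell (39.5%), and of 30 mitochondria-specific members 9 fell (30%), where 13.0% of tested genes were lower. Within the large subunit 14 of 28 bacterial-type (50%) and 5 of 20 mitochondria-specific members (25%) fell. Within the small subunit it was 3 of 15 (20%) and 4 of 10 (40%). The difference between these classes was not tested. Members with AAGATGGC in their window fell in 5 of 18 cases with a median log2 change of -0.08, and those without it in 17 of 49 with a median of -0.12.

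Without the drug, 40 mM against 2 mM glutamine lowered 9 members and raised 1, where 9.12% of tested genes were lower and 8.41% higher (17.5% in either direction). The median change was -0.05 over members (-0.03 over small, -0.05 over large subunit genes), and 56 of 76 lay below 0. All 3 libraries at 40 mM lay below all 3 at 2 mM for 14 members, where 15.8% of tested genes did so, and above for 2, where 15.4% did. MRPS23, a mitochondria-specific protein of the small subunit, had 61.1, 60.4 and 58.9 RPM at 40 mM without the drug, against 70.5, 72.4 and 70.7 RPM at 2 mM without the drug. Every library at 40 mM lay below every library at 2 mM, with a log2 fold change of -0.24 ± 0.04 (SE, n = 3 each; limma adjusted p = 0.000208). MRPL3 had 164, 177 and 169 RPM, against 194, 195 and 196 RPM, with a log2 fold change of -0.19 ± 0.03 (limma adjusted p = 9.48e-05). Both falls held in every alternative run.

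The other 7 falls without the drug, and the rise, each lost the call somewhere. MRPL58, a peptidyl-tRNA hydrolase that frees stalled ribosomes and is itself part of the large subunit, had 31.1, 29.6 and 30.6 RPM at 40 mM without the drug, against 37.5, 34.2 and 33.5 RPM at 2 mM without the drug. Its log2 fold change was -0.19 ± 0.06 (SE, n = 3 each; limma adjusted p = 0.0212), a call that ended without 2 mM replicate 1 or 40 mM replicate 2. MRPL2, MRPL30, MRPL4, MRPS27, MRPS10 and MRPS35 had log2 fold changes between -0.21 and -0.10. The count of falls was 5 without 40 mM replicate 3. Under plain library sums 1445 tested genes were higher and 917 lower, in place of 1076 and 1166.

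MRPS6, a bacterial-type protein of the small subunit, was the one rise, with 41.6, 43.6 and 44.1 RPM at 40 mM without the drug, against 39.9, 35.8 and 38.7 RPM at 2 mM without the drug. Its log2 fold change was 0.17 ± 0.06 (SE, n = 3 each; limma adjusted p = 0.036), and the call was lost under quantile normalization (0.052) and without 2 mM replicate 2 (0.181) or 3 (0.0553) or 40 mM replicate 2 (0.084) or 3 (0.117). MRPS6 shares its locus with SLC5A3, a transporter of the osmolyte myo-inositol that lies inside it. SLC5A3 had a mean of 112 RPM against 39.6 RPM for MRPS6, and its log2 fold change in the same comparison was 0.25 ± 0.05 (limma adjusted p = 0.000338). In some other comparisons the genes parted. With gemcitabine at 2 mM the log2 fold change was -0.44 for SLC5A3 and 0.04 for MRPS6. At 40 against 2 mM with the drug it was 0.34 for SLC5A3 and -0.04 for MRPS6. Neither of these values of MRPS6 passed the test, and both of SLC5A3 did (limma adjusted p = 4.63e-09 and 2.44e-06). With gemcitabine at 40 mM both genes were lower, SLC5A3 at -0.35 and MRPS6 at -0.18 (limma adjusted p = 6.55e-07 and 0.0173). Whether reads were shared between them was not tested.

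Comparing 40 with 2 mM in the untreated and in the drug-treated cells uses separate libraries. In both, MRPL2, MRPL3, MRPL30, MRPL4, MRPS23, MRPS27 and MRPS35 were lower, and no member was called in opposite directions. The share of all tested genes called the same way in both was not counted, so this overlap has no background beside it. Across the 76 members the changes had a Pearson r of 0.225 and a Spearman rho of 0.296, where r over all tested genes was 0.483. These members share libraries and depth, so the correlation is a description.

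Gemcitabine at 2 mM glutamine raised 12 members and lowered 7, or 15.8% and 9.21% of them, where 17.5% of tested genes were higher and 17.1% lower (34.6% in either direction). The rises took in 4 small and 8 large subunit genes, and the median change was 0.02 over members. The groups lay apart upwards for 19 members, against 23.2% of tested genes, and downwards for 13, against 22.8%. MRPL17, a bacterial-type large subunit protein, had 73.9, 70.5 and 74.6 RPM with the drug at 2 mM, against 60.5, 55.1 and 59.7 RPM without it at 2 mM. The groups did not overlap, with a log2 fold change of 0.32 ± 0.05 (SE, n = 3 each; limma adjusted p = 4.81e-06). MRPL20, also of bacterial type, had 49.2, 51.1 and 51.1 RPM, against 40.7, 43.9 and 42.1 RPM, and a log2 fold change of 0.25 ± 0.06 (limma adjusted p = 0.00079). The antisense gene MRPL20-AS1, which overlaps it, had a mean of 21.3 RPM and a log2 fold change of 0.00.

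In the small subunit, MRPS11 had 33.3, 35.9 and 35.9 RPM with gemcitabine at 2 mM, against 25.4, 31.9 and 27.7 RPM without it at 2 mM. This bacterial-type protein rose by 0.30 ± 0.07 on the log2 scale (SE, n = 3 each; limma adjusted p = 0.000894), and MRPL46, whose start lies 320 bases away on the other strand, had a log2 fold change of 0.14 that did not pass. MRPS36 had 14.9, 17.1 and 15.8 RPM, against 12.9, 12.5 and 11.7 RPM, and the largest rise of the set, 0.34 ± 0.09 (limma adjusted p = 0.00388). Its product is now placed in the alpha-ketoglutarate dehydrogenase complex rather than the ribosome. MRPL14 also rose, by 0.24 (limma adjusted p = 0.00164), while TMEM63B, which overlaps it, fell by 0.27.

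The falls with gemcitabine at 2 mM began with MRPS5, a bacterial-type protein near the mRNA entry, which had 61.7, 60.9 and 63.6 RPM with the drug at 2 mM, against 72.1, 73.8 and 71.8 RPM without it at 2 mM. The groups lay apart by a log2 fold change of -0.22 ± 0.04 (SE, n = 3 each; limma adjusted p = 0.000183). MRPL42, MRPS27, MRPL19 and MRPS10 fell by 0.18, 0.18, 0.17 and 0.11 on that scale. These 5 falls, and the rises of MRPL14, MRPL17, MRPL20, MRPS11 and MRPS36, held in every alternative run. The rest did not hold throughout. MRPL33 had a log2 fold change of 0.30 with overlapping groups and lost the call without untreated replicate 2 (0.0782) or drug-treated replicate 2 (0.109) or 3 (0.0525). MRPL44, an RNase III relative in the large subunit, had -0.14 (limma adjusted p = 0.0383). The count of rises was 6 without drug-treated replicate 2 and 7 without drug-treated replicate 3.

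Gemcitabine at 40 mM glutamine lowered 14 members and raised 6, or 18.4% and 7.89% of them, where 16.2% of tested genes were lower and 14.1% higher (30.3% in either direction). The small subunit held 9 of the 14 falls, out of 27 genes, and the large subunit 5 out of 49. The groups lay apart downwards for 19 members, where 21.4% of tested genes did so, and upwards for 9, where 19.2% did. MRPS2 had 40.6, 46.5 and 43.3 RPM with the drug at 40 mM, against 52.7, 47.2 and 56.1 RPM without it at 40 mM. The lowest untreated library lay just above the highest treated one, and the log2 fold change was -0.25 ± 0.06 (SE, n = 3 each; limma adjusted p = 0.00216).

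MRPS22, a mitochondria-specific small subunit protein, had 39.1, 42.8 and 40.1 RPM with the drug at 40 mM, against 50.2, 45.9 and 47.0 RPM without it at 40 mM. It fell by 0.22 on the log2 scale (limma adjusted p = 0.00121), with no overlap. MRPL19, MRPS9 and MRPS27 fell by 0.21, 0.20 and 0.19, and their groups did not overlap either. These 5 falls held in every alternative run, and the other 9 did not. MRPL24 had a log2 fold change of -0.20 (limma adjusted p = 0.00554) and MRPS6 of -0.18, where SLC5A3 had -0.35. The count of falls was 7 without drug-treated replicate 1, 9 without untreated replicate 3, and 7 under plain library sums, where 2460 tested genes were higher and 1452 lower in place of 1809 and 2070.

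Among the rises at 40 mM, MRPS33 had 43.2, 42.9 and 46.6 RPM with the drug, against 37.2, 40.03 and 37.2 RPM without it. MRPS21 had 72.3, 73.3 and 74.3 RPM with the drug, against 67.8, 59.7 and 64.4 RPM without it. The log2 fold changes were 0.21 ± 0.06 for MRPS33 and 0.19 ± 0.05 for MRPS21 (SE, n = 3 each; limma adjusted p = 0.00493 and 0.00119), and both held in every alternative run. MRPL33, MRPS25, MRPL14 and MRPS30, the last of these a large subunit protein by structure, had 0.30, 0.17, 0.16 and 0.13, and each lost the call in some alternative. The count of rises was 2 without untreated replicate 2, and 3 without drug-treated replicate 2 or 3. GENCODE names 8 pseudogenes of MRPS21 and 3 of MRPS33, and whether their reads entered these counts was not tested.

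**Figure D4:**
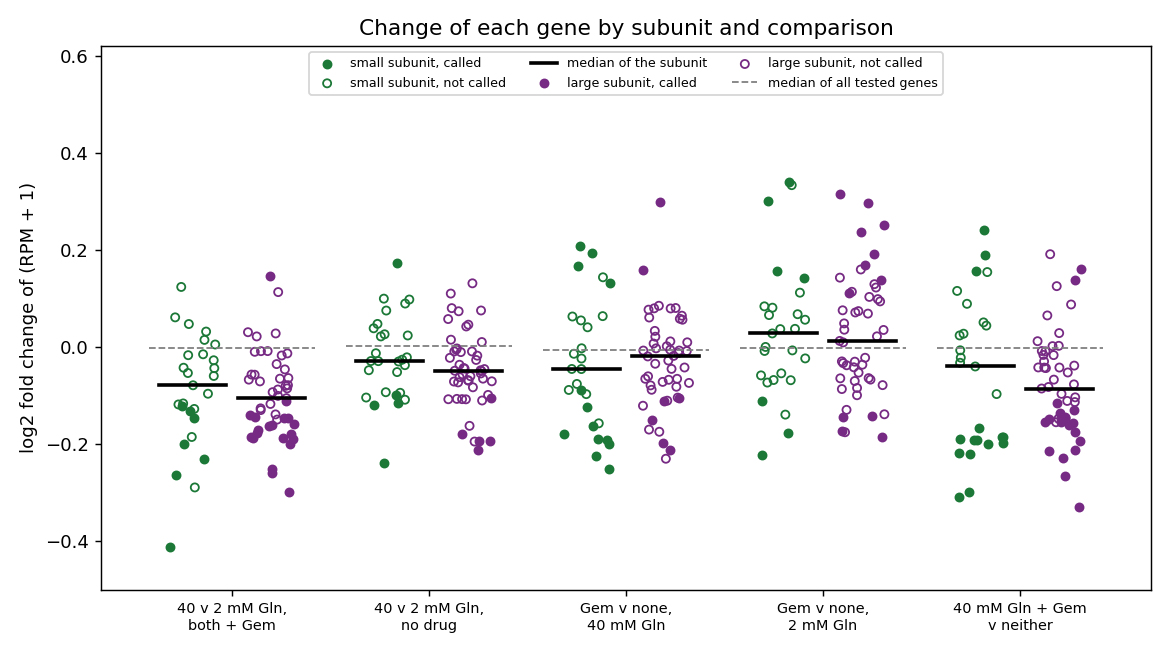
Log2 fold change of (RPM + 1) of each of the 76 members in the 5 pairwise comparisons, by subunit; filled points passed the adjusted p threshold of 0.05. In drug-treated cells, 40 mM against 2 mM, 65 of the 76 points lie below 0.

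The drug responses at 40 and at 2 mM rest on separate libraries and can be set side by side. MRPL14, MRPL33, MRPS21 and MRPS25 were higher with the drug at both levels, MRPL19, MRPL30, MRPS27 and MRPS5 were lower at both, and none was called in opposite directions. Here too the share of all tested genes called the same way at both levels was not counted. Across members r was 0.561 and rho 0.578, against an r of 0.72 over all tested genes, as a description over genes of the same libraries.

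**Figure D5:**
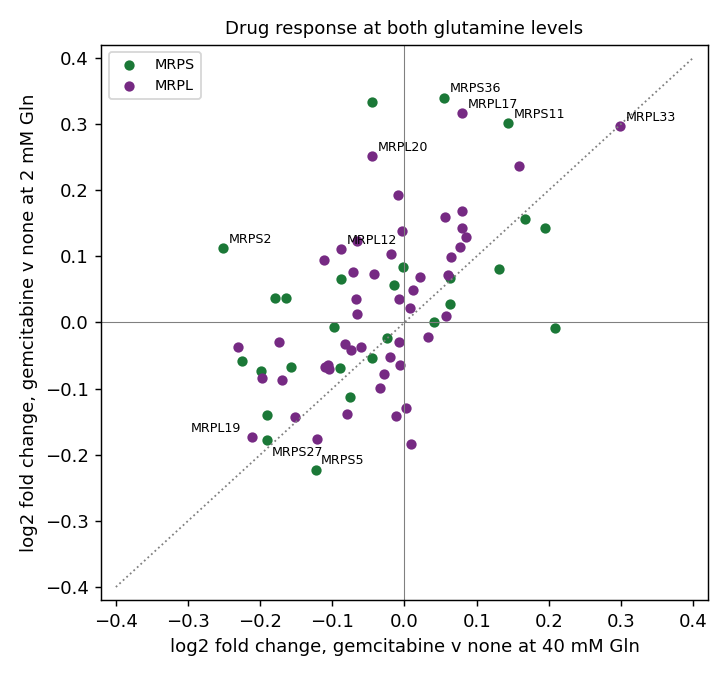
Log2 fold change of (RPM + 1) with gemcitabine at 40 mM (horizontal) and at 2 mM glutamine (vertical) for each of the 76 members, with MRPS and MRPL genes in separate colours; on the dotted line both are equal. MRPS2, MRPL20 and MRPL12 lie to the upper left of the line, at -0.25 and 0.11, -0.05 and 0.25, and -0.09 and 0.11.

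Whether gemcitabine acted differently at the glutamine levels was tested directly, as the change with the drug at 40 mM less the change with it at 2 mM (the interaction). It passed for 3 members, all lower at 40 mM, where 1.47% of tested genes were lower and 0.727% higher (2.2% in either direction). Of tested genes, 93 were higher and 188 lower, against 139 and 97 under plain library sums, 116 and 96 under quantile normalization and 138 and 111 with the trends removed. MRPS2 had a difference of -0.36 ± 0.09 (SE, n = 3 per group; limma adjusted p = 0.0213): the drug response was -0.25 at 40 mM and 0.11 at 2 mM. MRPL20 had 40.04, 48.8 and 44.2 RPM at 40 mM with the drug and 45.7, 46.4 and 44.9 RPM at 40 mM without it, and its rise was seen at 2 mM. Its difference was -0.30 ± 0.08 (limma adjusted p = 0.0445). MRPL12 had 124, 124 and 123 RPM at 40 mM without the drug and 126, 129 and 131 RPM at 2 mM without it, and a difference of -0.20 ± 0.05 (limma adjusted p = 0.0273).

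None of these 3 differences held throughout. That of MRPS2 held under each other scaling, filter and weighting, but was lost without 2 mM drug-treated replicate 2 (0.101) or 3 (0.0647), 40 mM untreated replicate 3 (0.0991) or 40 mM drug-treated replicate 1 (0.0784). That of MRPL12 was lost under plain library sums (0.0834), quantile normalization (0.0964) and removal of the trends (0.17), and also without 2 mM untreated replicate 1 (0.082), 2 mM drug-treated replicate 2 (0.0946) or 3 (0.0642), 40 mM untreated replicate 3 (0.0524) or 40 mM drug-treated replicate 1 (0.0864). MRPL20 lost it under plain library sums (0.0926), quantile normalization (0.0685) and removal of the trends with level, length and GC content (0.0536), and when any 1 of 10 libraries was left out, with adjusted p from 0.0613 to 0.164. The next by p, MRPL28, MRPL17 and MRPL42, had differences of -0.21, -0.24 and 0.19 that did not pass (limma adjusted p = 0.0608, 0.0676 and 0.0876).

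With both agents against neither, 28 members were lower and 5 higher, where 21.2% of tested genes were lower and 18.7% higher (40.0% in either direction). The falls comprised 11 small and 17 large subunit genes. The groups lay apart downwards for 31 members, against 25% of tested genes, and upwards for 6, against 23.3%. MRPS27, a pentatricopeptide repeat protein of the small subunit that binds RNA, had 139, 141 and 141 RPM at 40 mM with the drug, 153, 150.2 and 158 RPM at 2 mM with the drug, 162, 162 and 157 RPM at 40 mM without it, and 176, 171 and 175 RPM at 2 mM without it. The 4 groups lay in that order, apart except that 1 library at 2 mM with the drug, at 158 RPM, passed the lowest at 40 mM without it. The log2 fold change with both agents was -0.31 ± 0.03 (SE, n = 3 each; limma adjusted p = 3.06e-09).

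MRPL30, a bacterial-type large subunit protein, had 114, 117 and 112 RPM at 40 mM with the drug, against 141, 151 and 139 RPM at 2 mM without it, and a log2 fold change of -0.33 ± 0.05 (SE, n = 3 each; limma adjusted p = 5.61e-07). MRPS27 and MRPL30 were the members lower in all 5 pairwise comparisons, which share groups with each other. The single calls were less firm than the joint one: MRPS27 lost that of 40 against 2 mM without the drug when 40 mM replicate 3 was left out (0.0621) and that with the drug under plain library sums (0.0819). MRPS2, MRPL19 and MRPS9 fell by 0.30, 0.27 and 0.22 with both agents and held in every alternative run; MRPL1 had -0.23 (limma adjusted p = 0.0102) and did not. MRPL37, the highest member by RPM, had 181 ± 2.46 RPM with both and 201 ± 6.79 RPM with neither (SD, n = 3 each) and also fell in every run.

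The 5 rises with both agents were MRPS11, MRPS25, MRPL57, MRPS21 and MRPL17, with log2 fold changes of 0.24, 0.19, 0.16, 0.16 and 0.14. Of these MRPS21 held in every alternative run. The count of rises was 3 without 2 mM untreated replicate 1 or without replicate 1 or 3 at 40 mM with the drug. Under plain library sums 15 members were lower and 9 higher, and 3557 tested genes were higher and 1849 lower, in place of 2395 and 2716.

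The subunits were also set against each other within each library. The median over small subunit genes minus that over large subunit genes, in deviations from gene means, was -0.03, -0.03 and 0.01 in the libraries at 40 mM with the drug and -0.02, -0.02 and -0.05 at 2 mM with the drug. Without the drug it was 0.03, 0.02 and 0.03 at 40 mM and 0.01, 0.02 and 0.00 at 2 mM. It was above 0 in each library at 40 mM without the drug and below 0 in each at 2 mM with it, with values of both signs in the other 2 groups. Reads of small subunit genes took 0.163 to 0.172% of each library, and those of large subunit genes 0.284 to 0.304%. Placing MRPS18A and MRPS30 with the large subunit and leaving out MRPS36, as structures would, gave medians of -0.09 over 24 small and -0.10 over 51 large subunit genes for 40 against 2 mM in drug-treated cells. For the drug at 2 mM and for both agents against neither, this placing turned the order of the subunits. The small minus large median change was -0.025 in place of 0.015 for the drug at 2 mM. It was -0.049 in place of 0.045 for both agents against neither. For the drug at 40 mM the order stayed, at -0.064 in place of -0.026. It also stayed for 40 against 2 mM without the drug, with medians of -0.03 over small and -0.05 over large subunit genes.

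Subunits of the mitochondrial ribosome that carry other names were followed as 5 further genes. In drug-treated cells, 40 against 2 mM lowered 3 of them (60%, against 13.0% of tested genes), and no other pair of single-factor groups gave a call. DAP3, a small subunit GTP-binding protein, had a log2 fold change of -0.10, AURKAIP1 of -0.16 and GADD45GIP1, a large subunit protein, of -0.18 (limma adjusted p = 0.0361, 0.00422 and 0.00433). Each lost the call in some alternative. CHCHD1 and PTCD3 had -0.11 and 0.02 and did not pass.

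Of 25 factors that assemble the mitochondrial ribosome or modify its RNA, 5 (20%) were lower and none higher at 40 than at 2 mM in drug-treated cells, where 13.0% of tested genes were lower. C1QBP, a matrix protein needed for mitochondrial translation, had 321.5, 313 and 310 RPM at 40 mM with the drug, against 353, 365 and 348 RPM at 2 mM with the drug. C1QBP fell by 0.18 ± 0.03 on the log2 scale (SE, n = 3 each; limma adjusted p = 7.46e-05). ERAL1, a chaperone of the small subunit RNA, and MTERF3 had -0.14 and -0.27, calls that were lost under plain library sums. Without the drug, 40 mM lowered 3 of the 25 (12%, against 9.12% of tested genes), among them C1QBP (-0.13) and NOA1 (-0.18), and raised 1. At 2 mM glutamine gemcitabine raised 6 (24%, against 17.5% of tested genes) and lowered 2: the helicase DDX28 and the methyltransferase MRM2 rose by 0.28 and 0.23, while METTL15, which methylates the small subunit RNA, fell by 0.39 (limma adjusted p = 1.51e-06). At 40 mM it lowered 2 (8%, against 16.2%), METTL15 (-0.21) and C1QBP (-0.10).

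Of 17 translation factors and translation activators, 3 (17.6%) were lower at 40 than at 2 mM in drug-treated cells, where 13.0% of tested genes were lower. TUFM, the elongation factor that brings tRNA to the ribosome, had 311, 329.6 and 331 RPM at 40 mM with the drug, against 380.05, 382 and 380.4 RPM at 2 mM with the drug. Its log2 fold change was -0.23 ± 0.03 (SE, n = 3 each; limma adjusted p = 1.29e-06). SLIRP and LRPPRC, partners that keep mitochondrial mRNAs stable, had -0.34 and -0.17, and LRPPRC lost the call under quantile normalization (0.0662). Without the drug, 40 mM lowered 4 of the 17 (23.5%, against 9.12% of tested genes), among them TSFM (-0.26), SLIRP (-0.26) and LRPPRC (-0.13). Gemcitabine at 2 mM raised 3 (17.6%, against 17.5% of tested genes) and lowered 7 (41.2%, against 17.1%): the translocation factor GFM1 rose by 0.27, and the initiation factors MTIF3 and MTIF2 fell by 0.34 and 0.19. Gemcitabine at 40 mM raised 1, GFM1 (0.15), and lowered 5 (29.4%, against 16.2% of tested genes), among them TUFM (-0.19), MRRF (-0.22) and OXA1L (-0.17).

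Mitochondrial aminoacyl-tRNA synthetases, which charge the tRNAs of the organelle, comprised 17 genes. Gemcitabine at 2 mM lowered 6 (35.3%, against 17.1% of tested genes) and raised 2, with WARS2 at -0.43, FARS2 at -0.32 and EARS2 at -0.25. At 40 mM it lowered 4 (23.5%, against 16.2%), with EARS2 at -0.29, NARS2 at -0.22 and IARS2 at -0.16. Glutamine at 40 mM raised SARS2 by 0.31 without the drug, a call lost without 2 mM replicate 2 (0.0501). That is 5.88% of the list, where 8.41% of tested genes were higher. With the drug, 40 mM lowered EARS2 and YARS2, or 11.8% of the list, where 13.0% of tested genes were lower. Of 9 genes of mitochondrial DNA upkeep and transcription, gemcitabine at 40 mM raised 1 (11.1%, against 14.1% of tested genes) and lowered 2 (22.2%, against 16.2%). At 2 mM it raised 1 and lowered 1 (11.1% each, against 17.5% and 17.1%). Glutamine at 40 mM lowered 3 and raised none with the drug (33.3% lower, against 13.0%), and gave no call without it. POLRMT, the RNA polymerase, fell with the drug at 40 mM (-0.21) and at 2 mM (-0.14). TFAM, which packages mitochondrial DNA, had log2 fold changes between -0.05 and 0.00 in the pairwise comparisons and passed in none, while TFB2M fell by 0.22 at 40 against 2 mM with the drug.

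Among 7 regulators of such genes, MYC had 185, 189 and 189 RPM at 40 mM with the drug, 222, 232 and 229.9 RPM at 2 mM with it, 225, 219 and 223 RPM at 40 mM without it, and 237, 243 and 235 RPM at 2 mM without it. The 3 libraries with both agents stood below the other 9, and at 40 against 2 mM with the drug MYC fell by 0.28 (limma adjusted p = 4.73e-08). GABPA, the ETS factor, fell with gemcitabine by 0.18 at 40 mM and by 0.23 at 2 mM (limma adjusted p = 0.00409 and 0.000299). The coactivators PPRC1 and PPARGC1B rose with gemcitabine at 2 mM, by 0.24 and 0.33, and NRF1 had 0.22 there (limma adjusted p = 0.0425), a call lost without untreated replicate 3 (0.256) or drug-treated replicate 2 (0.282). Of the 7 regulators, gemcitabine at 2 mM raised 3 and lowered 1 (42.9% and 14.3%, against 17.5% and 17.1% of tested genes). At 40 mM it raised 1 and lowered 2 (14.3% and 28.6%, against 14.1% and 16.2%). Glutamine at 40 mM lowered 1, MYC, both with the drug (14.3%, against 13.0%) and without it (14.3%, against 9.12%), and raised none. PPARGC1A was not tested.

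The 13 mRNAs that the mitochondrial ribosome itself translates were lower in 8 cases (61.5%, against 13.0% of tested genes) and higher in none at 40 against 2 mM in drug-treated cells, with a median log2 change of -0.20. ND3 had -0.39 (limma adjusted p = 1.07e-07), CYTB -0.22, COX3 -0.23 and ND2 -0.22, while COX1 had 0.00. Their share of reads was 3.83 to 4.37% at 40 mM with the drug and 4.16 to 4.39% at 2 mM with it. These very abundant genes depended on scaling: under quantile normalization COX3 had 0.00 and ND1 turned to 0.08 in this comparison. Gemcitabine at 2 mM raised 4 (30.8%, against 17.5% of tested genes), among them ND3 (0.24), ND1 (0.21) and CYTB (0.21), and lowered ND4 (-0.16). At 40 mM it raised ND1 (0.15) and ND6 (0.11).

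Genes of the cytosolic ribosome and of the respiratory chain were set beside the members. Of 79 tested cytosolic ribosomal protein genes, 56 were lower at 40 than at 2 mM in drug-treated cells, 65 with gemcitabine at 40 mM and 47 with gemcitabine at 2 mM, and at most 2 were higher in any of these. These are 70.9%, 82.3% and 59.5% of the list, where 13.0%, 16.2% and 17.1% of tested genes were lower. Their median log2 changes were -0.14, -0.16 and -0.10, against -0.10, -0.03 and 0.02 over the mitochondrial set. Of 79 nuclear respiratory chain genes 26, 27 and 19 (32.9%, 34.2% and 24.1%) were lower in the same 3 comparisons, with medians of -0.09, -0.07 and -0.02. In the libraries at 40 mM with the drug, the median deviation was -0.16, -0.13 and -0.10 over cytosolic ribosomal protein genes and -0.12, -0.06 and -0.05 over respiratory chain genes. The difference between the lists was not tested.

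Genomic neighbours were also compared, by RefSeq. A protein-coding gene on the opposite strand started at most 1000 bases upstream of the RefSeq start for 17 of 67 members (25.4%), against 14.2% of 9325 tested protein-coding genes. MRPS27 and PTCD2 start 133 bases apart, and with gemcitabine MRPS27 fell by 0.19 at 40 mM and by 0.18 at 2 mM, where PTCD2 had -0.20 and -0.25 (limma adjusted p = 0.0121 and 0.00205). At 40 against 2 mM, MRPS27 had -0.13 with the drug and -0.12 without it, where PTCD2 had 0.00 and -0.05 and did not pass. MRPL49 and FAU, a cytosolic ribosomal protein gene, start 49 bases apart and had -0.17 and -0.24 at 40 against 2 mM with the drug. MRPS12 and SARS2 start 181 bases apart and had -0.26 and 0.14 in that comparison, the value of SARS2 not passing. Over the 15 distinct pairs with a tested partner, both genes were called in the same direction in 3 pairs with gemcitabine at 2 mM, in 1 with it at 40 mM, in 2 at 40 against 2 mM with the drug and in 1 without it. One gene alone was called in 5 or 6 pairs of each comparison, and no pair was called in opposite directions. In these comparisons 17.5% to 34.6% of tested genes passed in either direction. Neighbouring pairs of tested genes at large were not tallied, so the pair counts have no background beside them. Of the members, 18 overlap another listed gene, and 33 have pseudogenes named in GENCODE, 73 in all; whether the counting used strand is unstated in the labels and headers, and reads of overlapping partners cannot be told apart.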

How the data were processed

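Total RNA of 12 MIA PaCa-2 libraries, 4 groups of 3 by the titles, was sequenced. Values in the authors' deposited table are log2, 1 per library for each of 15090 symbols; from the values, each is the log2 of RPM plus a pseudocount of 1 after scaling of the libraries. All values were whole multiples of 1 read within 0.05 read in each library (100%), so reads were recovered. The aligner, genome build and counting program were not given in the sources used here.

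With limma 3.58.1 (R 4.3.3), 4 group means were fitted to those deposited log2 values over 12 libraries, the variance following a trend with level. All tests are two-sided and adjusted by Benjamini-Hochberg over 12789 genes with at least 1 RPM in 3 libraries, at a threshold of 0.05. A count test was foreseen; because the unit is log2, limma-voom on the recovered reads served as an alternative. The other alternatives were plain library sums, quantile normalization, a pseudocount of 0.1, no filter, robust moderation, a replicate block, leaving out each library, subunits by structure and, chosen after seeing the data, removal of trends with level, length and GC content. Fold changes are on the log2(RPM + 1) scale, which understates changes of low genes.

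Members and lists were chosen with earlier results of these data known. Named members were up to 6 called rises and falls per pairwise comparison, the 6 smallest interaction p, the 3 highest and lowest by RPM, 16 fixed symbols, and up to 3 called genes per pathway list and comparison. Mitochondrially encoded genes were matched by 13 symbols without a prefix. Replicates within a group differed beyond sampling noise (chi-square over degrees of freedom 2.38 to 5.64). Promoters are RefSeq, GRCh38.p14, matched by symbol (67 members), and neighbouring and overlapping genes are RefSeq too. Gene lengths, GC content and names of pseudogenes are GENCODE v29. The fit was tested on simulated data.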

Additional observations from a re-analysis of the deposited data

Results flagged for a closer look

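For 3 genes the response to gemcitabine differed between the glutamine levels by a direct test of that difference. MRPS2 had a drug response lower by 0.36 at 40 than at 2 mM (interaction -0.3632 on the log2 scale; limma adjusted p = 0.0213). Its RPM was 40.6, 46.5 and 43.3 at 40 mM with the drug and 52.2, 63.5 and 59.1 at 2 mM with the drug, and 52.7, 47.2 and 56.1 at 40 mM without it and 53.8, 54.8 and 52.3 at 2 mM without it. MRPL20 had an interaction of -0.2961 (limma adjusted p = 0.0445) and MRPL12 of -0.1986 (limma adjusted p = 0.0273). Each of the 3 lost its call when at least 1 library was left out.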

How the results depend on the processing

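Across other settings the direction of no member's call turned. Plain library sums moved these counts by over 1.5 times: in drug-treated cells, 40 against 2 mM gave 10 lower and 3 higher, gemcitabine at 40 mM gave 7 lower, both agents against neither gave 15 lower and 9 higher, and the interaction gave 1 lower and 1 higher. Medians of small and large subunit genes under it were -0.025 and -0.053 for 40 against 2 mM with the drug, 0.021 and -0.025 for both against neither, and -0.018 and -0.010 for the interaction; the large subunit median for the drug at 40 mM was 0.022. The cause was not tested.

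Quantile normalization gave 0 rises for 40 against 2 mM without the drug (limma; MRPS6) and 1 interaction fall. With trends removed there were 3 rises for 40 against 2 mM with the drug and 1 interaction fall, and the small subunit median for both against neither was -0.072. Small minus large medians for the drug at 40 mM were -0.045 under plain library sums, -0.050 under quantile normalization, -0.050 with a pseudocount of 0.1, -0.052 with voom and -0.064 with subunits by structure. With trends removed small minus large was -0.0025 for the drug at 2 mM and 0.00027 for both against neither. With subunits by structure it turned negative for both, at -0.025 and -0.049 in place of 0.015 and 0.045 by name, and the small subunit medians were -0.0034 for the drug at 2 mM, -0.082 for the drug at 40 mM and -0.13 for both against neither.

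Leaving out each library in turn gave ranges. For 40 against 2 mM with the drug, falls ran from 14 to 26, rises from 0 to 1, the small subunit median from -0.095 to -0.072, the large from -0.12 to -0.082 and small minus large from -0.0072 to 0.046. Without the drug, falls ran from 5 to 9, rises from 0 to 1, the medians from -0.053 to -0.0091 and from -0.062 to -0.043, and their difference from 0.0024 to 0.036. For the drug at 40 mM, falls ran from 7 to 15, rises from 2 to 6, the medians from -0.086 to -0.026 and from -0.040 to -0.011, and their difference from -0.061 to 0.012. For the drug at 2 mM, rises ran from 6 to 14, falls from 5 to 7, the medians from -0.0045 to 0.036 and from -0.0066 to 0.035, and their difference from -0.034 to 0.031. For both against neither, falls ran from 19 to 28, rises from 3 to 5, the medians from -0.088 to -0.040 and from -0.12 to -0.073, and their difference from 0.0035 to 0.045. For the interaction, falls ran from 0 to 5, the medians from -0.066 to -0.021 and from -0.073 to -0.036, and their difference from -0.014 to 0.025.

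Among mitochondrially encoded genes, quantile normalization turned COX3 to 0.22 for the drug at 40 mM and 0.18 for both against neither, ND1 to 0.081 for 40 against 2 mM with the drug, and ND2 to 0.16 and 0.079 for the drug at 40 mM and for both against neither.

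Same-numbered libraries showed little shared deviation, with correlations from -0.0768 to 0.048 over 18 pairs. The labels name no shared day or batch, and small correlations cannot show that there was none. A replicate block gave 5 interaction falls and moved no other count of members called by over 1.5 times. Depth limits low members such as MRPS18C, with a median of 33.5 reads.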
